A study of Mus musculus with 12 samples.

Results

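The cytosolic ribosome of mouse cells is built from ribosomal RNA and a fixed set of ribosomal proteins, and the genes for those proteins are the subject here. Members were taken by symbol, as the genes whose name is Rpl or Rps followed by a number and an optional a or x, together with Rplp0, Rplp1, Rplp2 and Rpsa. This rule found 76 of the 24421 genes in the table, 46 of the large subunit and 30 of the small subunit. No measured value entered the rule.

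Each ribosome needs about as many copies of most of these proteins as of the others, and their mRNAs are among the most abundant of growing cells. These mRNAs begin with a run of C and T (C and U in the RNA), the terminal oligopyrimidine tract, through which the kinase complex mTORC1 controls their translation. Several of the proteins also act away from the ribosome: Rpl5, Rpl11 and Rpl23 bind the p53 inhibitor Mdm2 when they are free of it.

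The series holds 12 RNA-seq libraries of mouse embryonic fibroblasts (MEFs), 3 in each of 4 groups. Null control and Null etoposide are the control line, called WT in the paper, and DKO control and DKO etoposide are a line in which CRISPR was used against Tfeb and Tfe3, both coding for transcription factors of lysosome and stress genes. Etoposide, a topoisomerase II inhibitor that breaks DNA, was given at 100 uM for 8 hr. The sample titles call the other libraries Control, and the paper's methods name DMSO for the controls. All groups share the culture medium with serum, and the paper describes the MEFs as immortalized with SV40. Each genotype is 1 line, so that the knockout cannot be told apart from other differences between the lines. The labels do not say how the replicates were grown, so the p-values measure the spread between these libraries. Total RNA was depleted of ribosomal RNA and sequenced, and 45577023 to 104120871 counts fell on genes in a library, of which 1740228 to 3667290 fell on the members. Levels are given in CPM, the counts relative to a library size scaled by TMM (trimmed mean of M values).

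The labels were checked on 4 genes. Tfeb was lower in the DKO line, at 40.1 against 5.12 CPM without etoposide and 10.7 against 1.91 CPM after it. Tfe3 counts differed far less, at 113 against 92.7 CPM without etoposide (log2 fold change -0.29, adjusted p = 8.68e-06) and at 68.7 against 68.5 CPM after it, so the Tfe3 label cannot be read from the level of its mRNA. The p53 targets Cdkn1a and Mdm2 were higher with etoposide in both lines, Cdkn1a by a log2 fold change of 2.94 in Null and 2.6 in DKO MEFs and Mdm2 by 3.92 and 2.44. Of 10 fibroblast markers, 10 passed the filter on low counts. Their summed level was 7380 CPM in Null control, 12100 CPM in DKO control, 4020 CPM in Null etoposide and 5330 CPM in DKO etoposide (means, n = 3), with Vim the most abundant in all groups but DKO etoposide, where Fn1 was.

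Promoters of the members are shown because the genes moved together. The RefSeq table (GRCm38.p6) held a promoter for 56 of the 76 members. The printed stretches run from 25 bases before the annotated start to 25 from it on, on the gene's own strand, and the capitals mark the longest run of C and T in each. The first 6 belong to members described below for their response to etoposide or for their lower level in the DKO line, and the last 3 to members whose longest run was short. They lie at chr14:18270962-18271011 (Rpl15, minus strand), chr2:32961687-32961736 (Rpl12, plus), chr10:23787185-23787234 (Rps12, minus), chr4:86857343-86857392 (Rps6, minus), chr11:114668555-114668604 (Rpl38, plus), chr10:128626482-128626531 (Rps26, minus), chr17:33824538-33824587 (Rps28, minus), chrX:74270791-74270840 (Rpl10, plus) and chrX:102189367-102189416 (Rps4x, minus).
Rpl15: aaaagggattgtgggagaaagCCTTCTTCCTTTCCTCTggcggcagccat
Rpl12: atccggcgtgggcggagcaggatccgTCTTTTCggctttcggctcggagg
Rps12: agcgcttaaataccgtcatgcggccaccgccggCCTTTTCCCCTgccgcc
Rps6: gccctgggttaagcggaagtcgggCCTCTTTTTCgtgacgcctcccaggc
Rpl38: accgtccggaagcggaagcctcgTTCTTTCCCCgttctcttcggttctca
Rps26: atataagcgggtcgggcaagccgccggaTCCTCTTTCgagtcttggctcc
Rps28: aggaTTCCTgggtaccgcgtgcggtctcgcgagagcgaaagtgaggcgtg
Rpl10: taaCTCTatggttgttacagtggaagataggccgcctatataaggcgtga
Rps4x: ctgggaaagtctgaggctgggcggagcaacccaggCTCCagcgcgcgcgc

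A run of 8 or more C and T lay in this window in 30 of the 56 members (53.6%), against 22.3% of the 27025 genes of the table. The run held the annotated start itself, with 8 or more bases, in 30.4% of members against 4.59% of all genes. In the 300 bases of the table, searched on both strands, CCGGAAG stood in 41.1% of members against 9.93% of all genes, GGGCGG in 60.7% against 38.2% and AAGATGGC in 8.93% against 3.19%. TATAAA stood in 10.7% of members against 15.7% of all genes. CACGTG, which is part of the sequence that Tfeb and Tfe3 are known to bind, stood in 10.7% of members against 8.09% of all genes and in 30.6% of the 36 ribosome biogenesis genes with a promoter. These matches describe the sequence only.

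The members took a larger share of the library after etoposide and a smaller share in the DKO line. In Null control the members summed to 3.4%, 3.38% and 3.28% of the counts on genes, and in Null etoposide to 4.49%, 4.54% and 4.65%. In DKO control they summed to 2.74%, 2.71% and 2.64%, and in DKO etoposide to 3.82%, 3.83% and 3.89%. The 4 groups did not overlap, with Null etoposide highest and DKO control lowest. The mean share was 1.36 times as high with etoposide in Null MEFs and 1.43 times in DKO MEFs, and 0.804 times as high in DKO as in Null MEFs without etoposide and 0.844 times after it. Each of the 4 comparisons gave p = 0.1 in a two-sided exact permutation test of 3 libraries against 3, the smallest value this design allows. With the TMM-scaled library size as the denominator the ratios were 1.21, 1.18, 0.874 and 0.853 in the same order. A larger share after etoposide was not particular to the members: the mitochondrial ribosomal protein genes took 1.16 times the share in Null and 1.43 times in DKO MEFs, and the proteasome genes 1.18 and 1.38 times, also with no overlap.

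Both subunits followed this pattern. Large subunit genes went from 2.13% to 2.92% with etoposide in Null MEFs and from 1.74% to 2.44% in DKO MEFs (means, n = 3). Small subunit genes went from 1.22% to 1.64% and from 0.957% to 1.4%. The share of Rn45s, the ribosomal RNA precursor, which the depletion was meant to remove, moved in the same order of groups, at 2.64% ± 0.381 in Null control, 1.84% ± 0.159 in DKO control, 4.15% ± 0.305 in Null etoposide and 3.24% ± 0.309 in DKO etoposide (SD, n = 3). Its part in the members' shares was not tested, but without Rn45s, Rmrp and Rpph1 in the denominator the ratios were 1.39, 1.45, 0.794 and 0.828. Reads on no annotated gene, as a share of all reads counted or set aside, also moved without overlap in all 4 comparisons. They were at 23.2% in Null control, 20.6% in DKO control, 26.2% in Null etoposide and 21.9% in DKO etoposide (means, n = 3). Reads that did not align uniquely were at 18.6%, 17%, 19.2% and 19.2% in the same order. The part of either in the members' shares was not tested. In these bulk libraries, fewer cells of a kind and less RNA per cell cannot be told apart, and a share says nothing of the amount per cell.

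**Figure D1:**
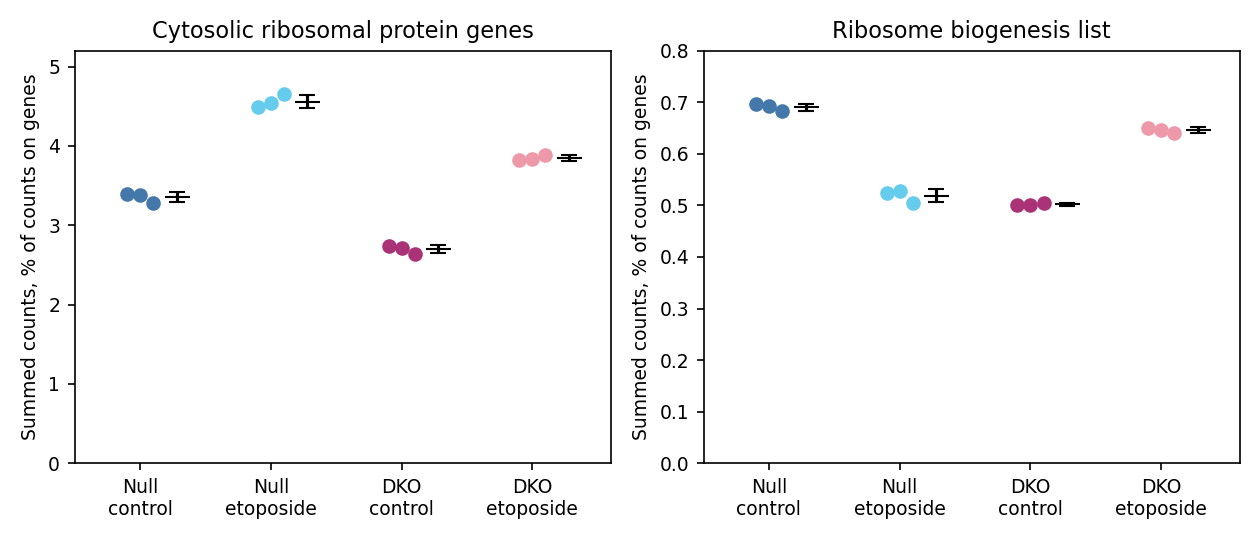
Summed counts of the cytosolic ribosomal protein genes (left) and of the 44 genes of the ribosome biogenesis list (right), in percent of the counts on genes, for each library (points) with the mean and SD of each group of 3 (bars). The left panel is highest in Null etoposide (4.56%) and lowest in DKO control (2.7%), while on the right etoposide goes with a lower share in Null MEFs and a higher one in DKO MEFs.

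The comparison of etoposide with control in Null MEFs asks how the genes responded to DNA damage in the control line. 60 of the 75 members that passed the filter were higher with etoposide (edgeR quasi-likelihood test, Benjamini-Hochberg adjusted p under 0.05), where 42.3% of all 15220 genes tested were higher. 1 member, Rpl30, was lower, where 37.2% of all genes were lower. The median log2 fold change of the members was 0.27 beside 0.07 over all genes, and their middle 50% lay between 0.2 and 0.34, so the changes were small and alike. In 59 of 75 members the 3 etoposide libraries lay apart from the 3 control libraries, as they did in 12203 of all 15220 genes, where chance gives 10%, and no member changed by 2-fold past the threshold.

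Rps20, a protein of the head of the small subunit, gave a change among the largest. Its level was 650, 656 and 643 CPM in Null control and 905, 904 and 948 CPM in Null etoposide. All 3 etoposide libraries lay above all 3 controls, by a log2 fold change of 0.5 ± 0.03 (SE; edgeR adjusted p = 3.91e-10). Rplp0, the scaffold of the ribosomal stalk that recruits translation factors, was at 2650, 2730 and 2460 CPM in Null control and at 3440, 3470 and 3570 CPM in Null etoposide. These libraries were apart as well (0.42 ± 0.05, adjusted p = 3.45e-07). Rplp1, which sits on that stalk, rose by 0.42 ± 0.05, and Rpl12 at its base by 0.47 ± 0.06. Rplp2, the partner of Rplp1, rose by 0.18 ± 0.07 (adjusted p = 0.0224), a call that was lost without Null control replicate 3 (0.1, adjusted p = 0.194) or without Null etoposide replicate 3 (0.1, adjusted p = 0.181).

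Of the proteins that bind Mdm2, Rpl11 rose by 0.17 ± 0.03 (adjusted p = 0.000194) and Rpl23 by 0.39 ± 0.05 (adjusted p = 2.43e-06). Rpl5 stood at 840, 488 and 591 CPM in Null control and at 939, 996 and 975 CPM in Null etoposide, and rose by 0.6 ± 0.12 (adjusted p = 0.000218). Its controls were far more spread than its treated libraries. Rps6, the substrate of the S6 kinases downstream of mTORC1, gave 0.02 ± 0.06 (adjusted p = 0.758), with 1080, 1050 and 1010 CPM in Null control and 994, 1150 and 1040 CPM in Null etoposide. These groups overlapped, and with the library size left unscaled the value was 0.19 (adjusted p = 0.011). Rpl30 was a member of very low counts, with 3.49, 3.61 and 4.42 CPM in Null control and 3.04, 2.7 and 2.95 CPM in Null etoposide (-0.4 ± 0.13, adjusted p = 0.00794), and with the library size left unscaled its call was lost (-0.23, adjusted p = 0.0999).

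In DKO MEFs the same comparison gave 55 members higher with etoposide, where 43.7% of all genes were higher, and 0 lower, where 31.5% of all genes were lower. The count of 0 in edgeR was also 0 at an unadjusted p under 0.05, in DESeq2 and in limma-trend; without a filter on low counts it was 2, and with the replicate number as a block it was 1. The median log2 fold change was 0.23 beside 0.14 over all genes, a smaller distance from all genes than in Null MEFs. The libraries did not overlap between the groups in 54 of 75 members and in 11587 of all 15220 genes, where chance gives 10%. Among these members was Rps20, at 499, 504 and 504 CPM in DKO control and 700, 726 and 768 CPM in DKO etoposide. All its treated libraries were higher (0.54 ± 0.03, adjusted p = 1.98e-10). Of the stalk genes, Rplp0 rose by 0.34 ± 0.05 and Rplp1 by 0.49 ± 0.05, and Rpl12 rose by 0.51 ± 0.06. Rplp2 gave 0.16, with 241, 246 and 280 CPM in DKO control and 289, 296 and 271 CPM in DKO etoposide, which overlapped.

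Rpl15, a protein of the core of the large subunit, had the largest change among members with a small replicate spread. It stood at 111, 111 and 109 CPM in DKO control and at 200, 177 and 179 CPM in DKO etoposide. The treated libraries lay well apart from the controls (0.75 ± 0.05, adjusted p = 1.18e-10). Rps12, a small subunit protein, was at 148, 153 and 143 CPM in DKO control and 219, 228 and 243 CPM in DKO etoposide (0.64 ± 0.05, adjusted p = 1.4e-09), again with no overlap. Rpl10a, which lies at the stalk where spent tRNA leaves, gave 544, 563 and 544 CPM in DKO control and 530, 523 and 553 CPM in DKO etoposide (-0.04 ± 0.03, adjusted p = 0.297). Its groups overlapped, and with the library size left unscaled its value was 0.23.

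With etoposide 51 of 75 members were higher in both lines, in comparisons that share no library, where 30.5% of all genes were higher in both. 4 members were called higher in DKO MEFs alone and 9 in Null MEFs alone, which is no test of a difference. Across the 75 members, which are not independent, the log2 fold changes in the 2 lines had r = -0.32 and rho = 0.15. Over the 59 members with a replicate SD of log2 CPM of at most 0.15, a limit chosen after the values were seen, they had r = 0.18 and rho = 0.26. The size of a member's change in Null MEFs thus said little of its size in DKO MEFs. How far the counts depend on scaling is a matter of the whole table: with the library size left unscaled the median of all genes shifted by 0.17 in Null and 0.27 in DKO MEFs, and the members' medians moved with it, to 0.44 and 0.5, at the same distance from all genes (0.21 and 0.09). That distance depends on the genes and libraries taken: it was 0.35 in Null and 0.21 in DKO MEFs when genes averaging under 1 CPM were dropped, and 0.23 and 0.16 with only the 6 libraries of the comparison.

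**Figure D2:**
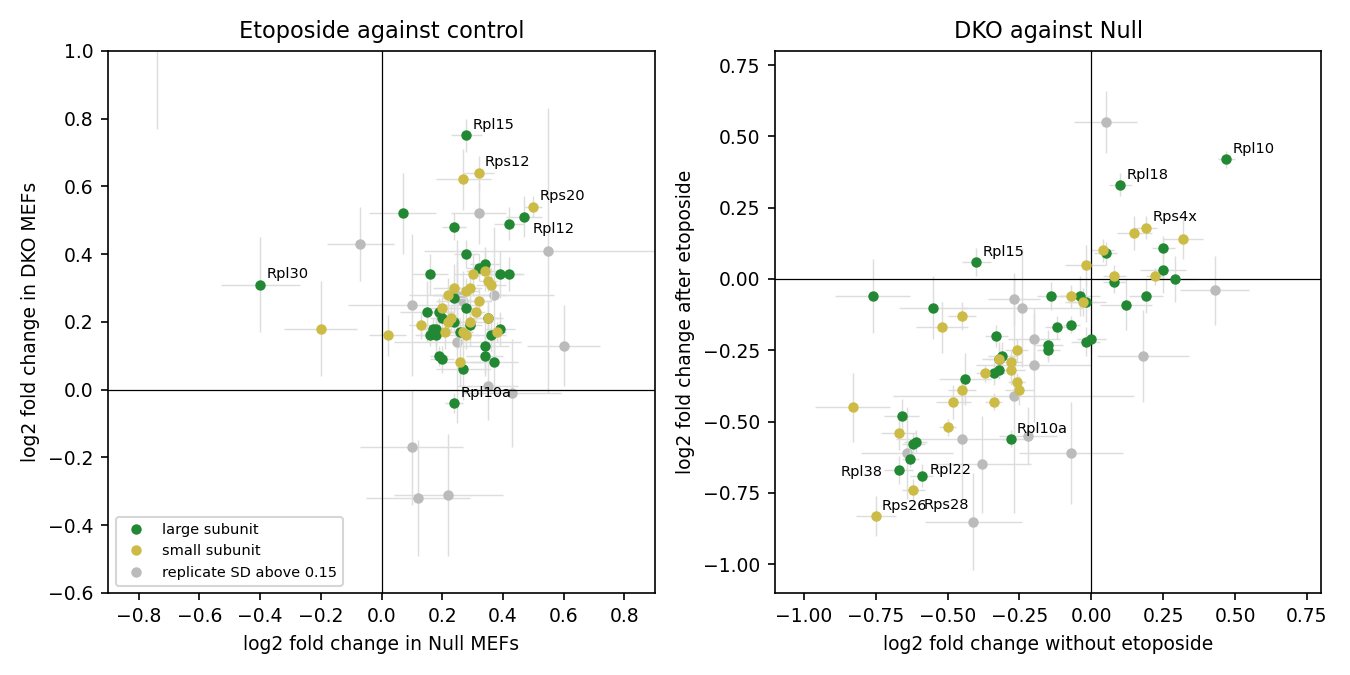
Log2 fold change of each member with etoposide in Null (x) and DKO MEFs (y) on the left, and in DKO against Null MEFs without (x) and after etoposide (y) on the right; bars are 1 SE and grey points are members with a replicate SD of log2 CPM above 0.15. Rps23 lies outside the axes of both panels (-0.74 and 1.61; -2.11 and 0.24). On the left most points sit to the upper right of 0 in a tight cloud, and on the right they spread along a diagonal that reaches from Rps26 to Rpl10.

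The comparison of DKO with Null MEFs asks what differed with the knockout. Without etoposide 41 members were lower in DKO MEFs, where 33.4% of all genes were lower, and 11 were higher, where 33.3% were higher. The median log2 fold change was -0.26 beside -0.02 over all genes. With the library size left unscaled, 50 members were lower and 5 higher, while the median of all genes shifted by -0.12. The groups did not overlap in 54 of 75 members and in 10734 of all 15220 genes, where chance gives 10%.

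Rps26, a small subunit protein beside the exit of the mRNA, stood at 467, 454 and 362 CPM in Null control and at 270, 250 and 243 CPM in DKO control. All DKO libraries lay below all Null libraries (-0.75 ± 0.07, adjusted p = 4.69e-08). Rpl38, a large subunit protein known from the translation of Hox mRNAs, was at 134, 141 and 124 CPM in Null control and 82.3, 83.8 and 84.7 CPM in DKO control, also apart (-0.67 ± 0.05, adjusted p = 9.21e-10). Rps6 stood at 666, 663 and 636 CPM in DKO control, below each of its Null controls (-0.67 ± 0.06, adjusted p = 5.01e-08). Rpl8, which lines the peptidyl transferase centre, was lower by -0.63 ± 0.03, Rps28 by -0.62 ± 0.04, Rpl22 by -0.59 ± 0.04 and Rpl11 by -0.32 ± 0.03 on the log2 scale. The other way, Rpl10, a late-joining protein of the large subunit coded on the X chromosome, was at 317, 325 and 321 CPM in Null control and 432, 443 and 455 CPM in DKO control. Each DKO library was above each Null library (0.47 ± 0.03, adjusted p = 1.06e-09). Rps4x, also on the X chromosome, was higher by 0.19 ± 0.04 (adjusted p = 0.000444), a call that was lost with the library size left unscaled (0.07, adjusted p = 0.107).

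After etoposide 42 members were lower in DKO MEFs, where 36.6% of all genes were lower, and 8 were higher, where 37.5% were higher. The number higher was 4 with the size factors of DESeq2. The median was -0.23 beside 0 over all genes. In 44 of 75 members the groups did not overlap, a smaller share than the 11375 of all 15220 genes, where chance gives 10%. Rps26 was at 495, 555 and 516 CPM in Null etoposide and at 297, 285 and 296 CPM in DKO etoposide, with every DKO library lower (-0.83 ± 0.07, adjusted p = 9.06e-09). Rps28 was at 295, 330 and 314 CPM in Null etoposide and 180, 187 and 194 CPM in DKO etoposide (-0.74 ± 0.04, adjusted p = 2.23e-11). Its groups were apart too. Rpl22 (-0.69 ± 0.04), Rpl38 (-0.67 ± 0.05) and Rpl8 (-0.63 ± 0.03) were lower, and Rpl10 was higher at 504, 497 and 521 CPM in DKO etoposide against 372, 374 and 394 CPM in Null etoposide (0.42 ± 0.03, adjusted p = 3.47e-09).

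Of 75 members, 34 were lower and 5 higher in both comparisons of the lines, which share no library, and 0 were called in opposite directions. Of all genes 20% were lower in both and 22.8% higher in both, and 6.08% and 5.37% were called in opposite directions. Across 75 members the log2 fold changes without and after etoposide had r = 0.48 and rho = 0.7, and over the 59 with a small replicate spread r = 0.81 and rho = 0.81. Small subunit genes had a median of -0.28 without and -0.31 after etoposide, and large subunit genes -0.2 and -0.21. The difference between the subunits was not tested.

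The members' genotype differences went with those of their chromosomes. For each chromosome the median log2 fold change of its genes other than the members was taken. Without etoposide it ran from -0.4 on chromosome 15 to 0.44 on the X chromosome, and after etoposide from -0.43 on chromosome 15 to 0.5 on the X chromosome. Rpl3, Rpl8, Rpl30 and Rpl37 lie on chromosome 15, and Rpl10, Rps4x, Rpl39 and Rpl36a on the X chromosome. Across the 75 members, which share libraries and, in part, chromosomes, a member's value and its chromosome's median had r = 0.63 and rho = 0.74 without etoposide and r = 0.47 and rho = 0.49 after it. With etoposide against control the same relation had r = 0.39 and rho = 0.24 in Null MEFs and r = -0.27 and rho = 0.02 in DKO MEFs. Even so, 67 of 75 members lay below the median of their own chromosome without etoposide, by a median of -0.25, and 66 lay below it after etoposide, by -0.27. Whether the lines differ in chromosome number was not tested.

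**Figure D3:**
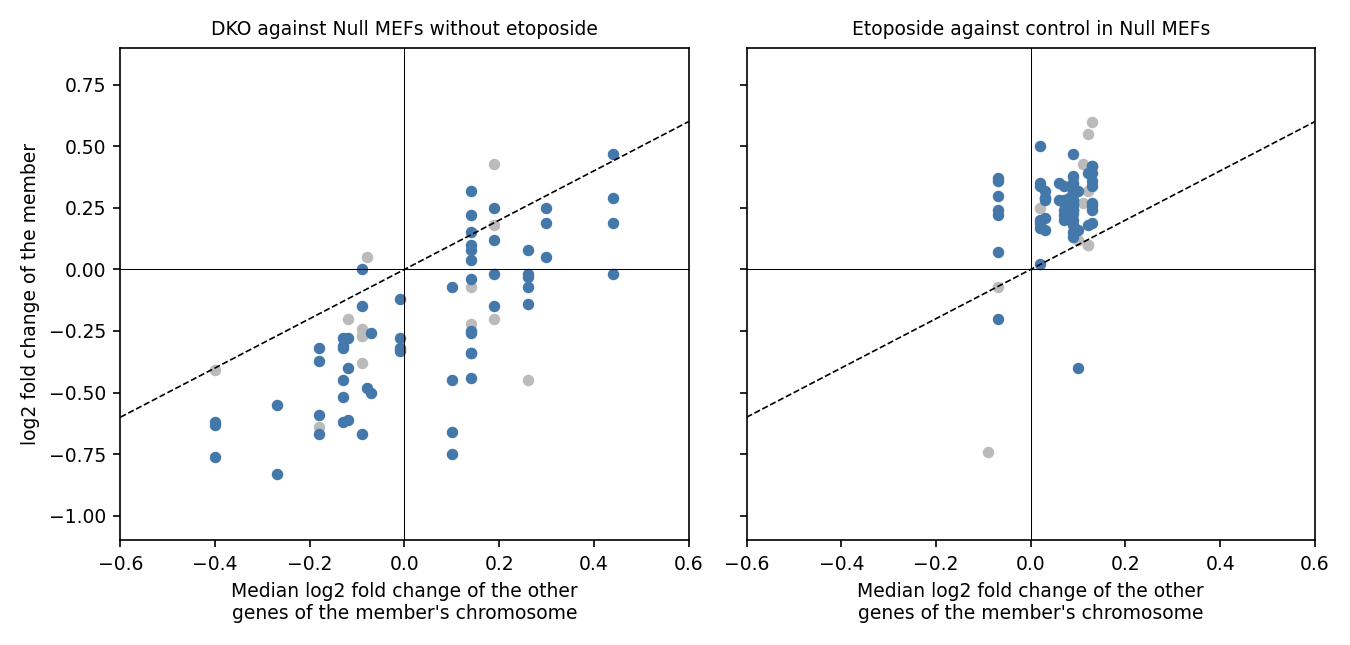
Log2 fold change of each member (y) against the median log2 fold change of the other genes of its chromosome (x), for DKO against Null MEFs without etoposide (left) and for etoposide against control in Null MEFs (right); the dashed line marks equal values and grey points are members with a replicate SD above 0.15. Rps23 (-2.11) lies outside the left panel. On the left 67 members lie below the dashed line along a rising band, and on the right the chromosomes hardly differ and 70 members lie above it.

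The interaction asks whether etoposide acted differently in the 2 lines, as the log2 fold change in DKO minus that in Null MEFs. 7 members were higher, where 29.6% of all genes were higher, and 7 were lower, where 24.4% were lower. The median was -0.02 beside 0.05 over all genes. The split depends on scaling: it was 6 higher and 18 lower with the size factors of DESeq2, 4 and 17 in DESeq2 itself, and 19 and 1 with the library size left unscaled. The count of 14 was 9 without Null control replicate 3 and 9 without DKO control replicate 1, and 21 without DKO etoposide replicate 3.

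5 members were past the threshold in every alternative that was run. Rpl15 was at 150, 141 and 146 CPM in Null control and 168, 180 and 184 CPM in Null etoposide. Its rise in DKO MEFs was larger, with an interaction of 0.46 ± 0.06 (adjusted p = 9.69e-06). Rps12 was at 203, 211 and 192 CPM in Null control and 238, 261 and 257 CPM in Null etoposide (interaction 0.32 ± 0.07, adjusted p = 0.000521). Both genes were lower in DKO than in Null control and nearer to Null after etoposide. Rpl10a went the other way, from 665, 665 and 677 CPM in Null control to 761, 792 and 820 CPM in Null etoposide, with no such rise in DKO MEFs (interaction -0.28 ± 0.05, adjusted p = 8.14e-05). Rpl18 (0.23 ± 0.06, adjusted p = 0.00214) and the weakly counted Rpl30 (0.71 ± 0.19, adjusted p = 0.00441) were the others.

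The rule leaves out by name some genes of ribosomal proteins, among them Rps3a1, Fau, whose product is made as a fusion to a ubiquitin-like protein, and Gnb2l1 (Rack1), a docking protein on the small subunit. Rps3a1 was at 883, 879 and 855 CPM in Null control, 611, 598 and 639 CPM in DKO control, 975, 1000 and 1090 CPM in Null etoposide and 698, 689 and 740 CPM in DKO etoposide. It rose with etoposide in Null MEFs (0.23 ± 0.04) and was lower in DKO than in Null MEFs without etoposide (-0.5 ± 0.04), with DKO etoposide staying under Null control. Gnb2l1 rose with etoposide by 0.24 ± 0.04 in Null MEFs. Fau had 1 library out of line, Null etoposide replicate 1 at 240 CPM beside 480 and 441 CPM; its change in Null MEFs was -0.09 ± 0.15 with this library and 0.16 (adjusted p = 0.00357) without it. In DKO MEFs Fau was higher by 0.36 ± 0.15 (adjusted p = 0.0437), a call that was lost without any single library of that comparison (adjusted p from 0.0829 to 0.118).

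Of 9 paralogs in the table, 4 passed the filter. Rps27l, a paralog of Rps27 and a known p53 target, was at 108, 108 and 104 CPM in Null control, 236, 256 and 255 CPM in Null etoposide, 128, 132 and 136 CPM in DKO control and 181, 200 and 211 CPM in DKO etoposide. It rose in both lines, by 1.23 ± 0.05 in Null and 0.58 ± 0.05 in DKO MEFs, more in Null MEFs (interaction -0.65 ± 0.07, adjusted p = 3.49e-07). Rpl22l1, the paralog that Rpl22 is known to repress, rose in Null MEFs (0.41 ± 0.06) and gave 0.02 ± 0.06 in DKO MEFs, or 0.29 with the library size left unscaled (interaction -0.4 ± 0.08, adjusted p = 0.000509). Rpl7l1 was lower in Null MEFs (-0.18 ± 0.04, and -0.01 with the library size left unscaled) and higher in DKO MEFs (0.14 ± 0.04; interaction 0.31 ± 0.05, adjusted p = 4.81e-05). Rpl36al did not pass the test with etoposide in either line (-0.01 and -0.07), but with the library size left unscaled it was 0.16 and 0.2. Of 4 ribosomal protein pseudogenes tested, 2 were higher with etoposide in each line, with a median of 0.17 in both. Of all genes 42.3% were higher in Null and 43.7% in DKO MEFs.

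The genes that build ribosomes did not move with the ribosomal protein genes in Null MEFs. Of 44 biogenesis genes, which make and process ribosomal RNA in the nucleolus, 39 were lower and 3 higher with etoposide in Null MEFs (median -0.62). In DKO MEFs 11 were lower and 21 higher (median 0.11), and with the library size left unscaled 2 were lower and 38 higher. The interaction was past the threshold and positive in 40 of 44 (median 0.71). Polr1a, the largest subunit of RNA polymerase I, fell by 0.75 on the log2 scale in Null MEFs and rose by 0.33 in DKO MEFs. Without etoposide 33 of the 44 were lower in DKO MEFs and 4 higher (median -0.36), and after it 1 was lower and 35 were higher (median 0.32). Of all genes 37.2% were lower and 42.3% higher with etoposide in Null MEFs, and 31.5% and 43.7% in DKO MEFs. Between the lines 33.4% were lower and 33.3% higher without etoposide, and 36.6% and 37.5% after it. A positive interaction past the threshold was found in 29.6% of all genes. The summed share of the 44 genes was 0.69% in Null control, 0.519% in Null etoposide, 0.502% in DKO control and 0.646% in DKO etoposide (means, n = 3). In each comparison the groups did not overlap (p = 0.1, exact permutation test).

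Of 14 other mRNAs of the terminal oligopyrimidine class, 6 were higher and 6 lower with etoposide in Null MEFs (median -0.08, and 0.09 with the library size left unscaled) and 5 higher and 4 lower in DKO MEFs. Among them the elongation factor gene Eef1b2 (0.44 and 0.49) and Pabpc1, which codes for the poly(A)-binding protein (0.6 and 0.68), rose in both lines. In DKO against Null MEFs 11 of the 14 were lower and 1 was higher without etoposide, and 13 were lower and 1 was higher after it. In the interaction 4 were higher and 3 lower. Of 11 regulators of ribosomal protein genes and their mRNAs, 9 were lower and 1 was higher with etoposide in Null MEFs, and 8 were lower and 2 higher in DKO MEFs (median -0.21, and 0.06 with the library size left unscaled). Myc fell in both lines (-1.46 ± 0.06 and -2.13 ± 0.06), and Larp1, which binds the oligopyrimidine tract, fell by more in Null (-1.31 ± 0.05) than in DKO MEFs (-0.27 ± 0.05; interaction 1.04 ± 0.07, adjusted p = 1.1e-09). In DKO against Null MEFs 4 regulators were higher and 6 lower without etoposide, and 4 higher and 2 lower after it. In the interaction 7 were higher and 1 was lower. Beside both lists, 42.3% of all genes were higher and 37.2% lower with etoposide in Null MEFs, and 43.7% and 31.5% in DKO MEFs. Between the lines these shares were 33.3% and 33.4% without etoposide and 37.5% and 36.6% after it. For the interaction they were 29.6% and 24.4%.

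Of 77 mitochondrial ribosomal protein genes, 29 were higher and 25 lower with etoposide in Null MEFs (median 0.03, and 0.2 with the library size left unscaled) and 58 higher and 5 lower in DKO MEFs (median 0.25). In DKO against Null MEFs 20 were higher and 37 lower without etoposide and 32 higher and 21 lower after it, and in the interaction 45 were higher and 9 lower. Of 37 proteasome subunit genes tested, 12 were higher and 11 lower in Null MEFs with etoposide (median 0.03) and 21 higher and 3 lower in DKO MEFs (median 0.15). Between the lines, 10 were higher and 17 lower without etoposide and 16 higher and 9 lower after it, and in the interaction 18 were higher and 3 lower. In Null MEFs with etoposide this is 37.7% higher and 32.5% lower of the mitochondrial list, and 32.4% and 29.7% of the proteasome list. Both lie below the 42.3% and 37.2% of all genes. In DKO MEFs 43.7% of all genes were higher and 31.5% lower. Between the lines 33.3% and 33.4% were so without etoposide and 37.5% and 36.6% after it, and 29.6% and 24.4% in the interaction. No test compared these lists with the members.

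**Figure D4:**
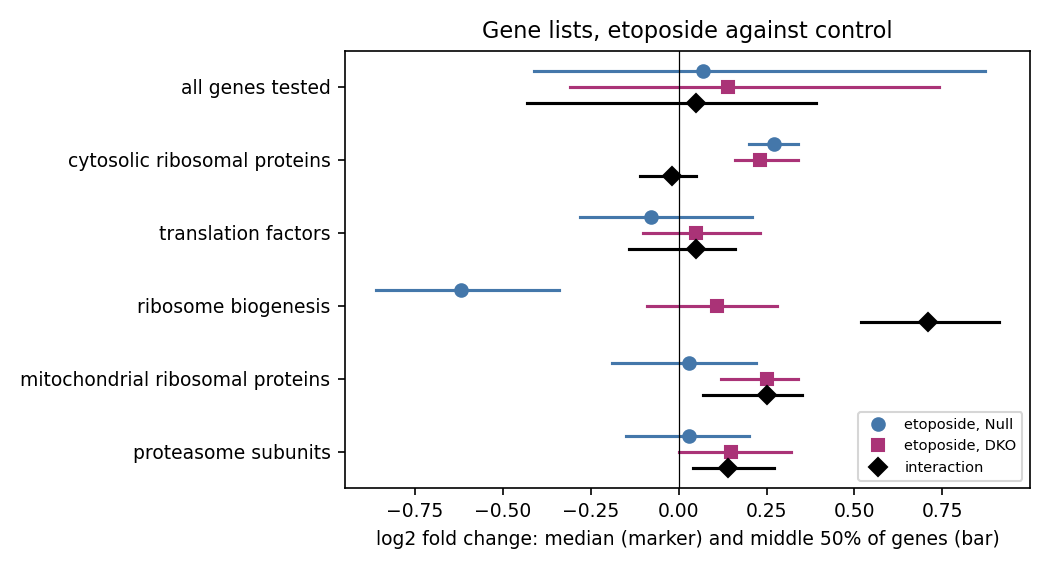
Median log2 fold change (markers) and middle 50% of genes (bars) of each list with etoposide in Null MEFs, in DKO MEFs and for the interaction. The cytosolic ribosomal protein genes sit at 0.27 and 0.23 with narrow bars and an interaction at -0.02, while ribosome biogenesis genes lie at -0.62 in Null and 0.11 in DKO MEFs.

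Markers of other cell types were low in every group but moved with etoposide. The 5 macrophage markers summed to 1.75 CPM in Null control, 2.12 CPM in DKO control, 13 CPM in Null etoposide and 3.81 CPM in DKO etoposide, most of it Cd68, and Adgre1 and Tyrobp were at 0 in both control groups. The 3 muscle markers summed to 2.11, 0.386, 36.6 and 2.49 CPM in the same order, nearly all Des, and Myod1 and Myog were at 0 in both control groups. The 4 epithelial markers summed to 0.814, 0.751, 2.7 and 1.69 CPM, with Cdh1 the most abundant, and the 3 endothelial markers to 0.0821, 0.0759, 1.21 and 0.761 CPM, with Pecam1 the most abundant in all groups but DKO control, where Kdr was. All 10 fibroblast markers fell with etoposide in Null MEFs and 9 of 10 in DKO MEFs, where 37.2% and 31.5% of all genes fell. Of the 10, 9 without and 8 after etoposide were higher in DKO than in Null MEFs, where 33.3% and 37.5% of all genes were. The part of these marker changes in the members' results was not tested.

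Levels differed widely between members although the ribosome holds most of the proteins in equal number. Per kilobase of transcript, taken so that genes of different length can be compared, the mean over all libraries had a median of 418.5 CPM per kb. 47 of the 76 members lay within 2-fold of it. The length is that of 1 annotated transcript per gene, the longest of those ranked best, which need not be the form made in these cells. It was 5179 bases for Rps15a (55.4 CPM per kb), 3706 for Rps20 (189) and 2989 for Rpl18 (194). The part of this choice in the levels and in the shared stretches was not tested. Rplp1 (2670 CPM per kb), Rplp0 (2100) and Rpl8 (1710) were highest, and Rpl30 (3.32), Rpl29 (1.71) and Rpl26 (0.0617) lowest. Rpl26 had 0 to 10 counts in a library and did not pass the filter. Reads were counted only where they aligned uniquely, and 74 of the 76 members share at least 1 stretch of 75 bases with a transcript of another gene, mostly pseudogenes. The share of such stretches ran from 0 to 98.5% of a member's transcript, with a median of 44.15%, and had r = -0.05 and rho = 0.02 with the level per kilobase across 75 members. The number of other genes that share a stretch had r = -0.3 and rho = -0.26 with it.

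Some members varied between replicates far more than their counts would give. The SD of log2 CPM between replicates had a median of 0.0805 over the 75 members. When only genes averaging 100 CPM or more were taken, it was 0.0677 in members and 0.0437 in all genes. Rps23, which lies at the decoding site, was at 250, 76.7 and 323 CPM in Null control, 88.5, 54.2 and 6.39 CPM in DKO control, 250, 73.1 and 65.6 CPM in Null etoposide and 7.14, 194 and 252 CPM in DKO etoposide. Its replicates differed widely within every group. Its SD was 1.91, and its lower level in DKO control (-2.11 ± 0.85, adjusted p = 0.0374) rests on such values. Rps27a, a ubiquitin fusion, was at 60.4, 204 and 229 CPM in Null control, 189, 128 and 90.9 CPM in DKO control, 226, 199 and 296 CPM in Null etoposide and 70, 258 and 210 CPM in DKO etoposide. Its groups overlapped in all 4 comparisons, and it passed the threshold in none of them.

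In all, 16 members had an SD above 0.15. They were 12 of the 34 members with 50% or more of their 75-base stretches shared and 4 of the 41 with less, and the SD and the shared percentage had rho = 0.37 and r = 0.16 across members. Without the 16, the counts of members higher and lower were 54 and 1 with etoposide in Null MEFs, 52 and 0 in DKO MEFs, 10 and 37 in DKO against Null MEFs without etoposide, 7 and 35 after it, and 6 and 6 in the interaction, of 59. Over all genes 42.3% were higher and 37.2% lower with etoposide in Null MEFs, and 43.7% and 31.5% in DKO MEFs. In DKO against Null MEFs these shares were 33.3% and 33.4% without etoposide and 37.5% and 36.6% after it. In the interaction they were 29.6% and 24.4%. 29 members hold a small nucleolar RNA gene inside an intron or exon; 22 of them were higher with etoposide in Null MEFs and 17 in DKO MEFs, and of the 46 tested without such a gene 38 and 38.

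**Figure D5:**
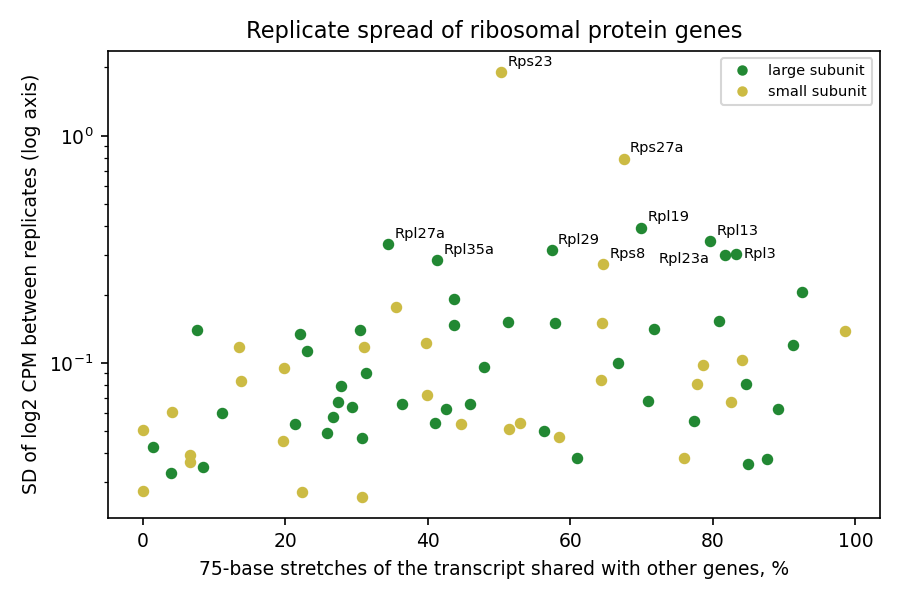
SD of log2 CPM between replicates (y, log axis) against the percentage of a member's 75-base stretches that occur in transcripts of other genes (x), for 75 members. Rps23 (1.91) and Rps27a (0.794) stand above the rest, and most members above 0.15 lie to the right of 50%.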

How the data were processed

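RNA-seq of 12 libraries of Null and DKO MEFs, control or with 100 uM etoposide for 8 hr, was used, 3 libraries per group. The authors deposited 1 table of counts per gene and library. The submitters' processing notes name HISAT2 and featureCounts on mm10, the paper names HTSeq instead of featureCounts, and no versions are given. The table has no other per-sample columns, and 5 summary lines were removed from it. Libraries held 45577023 to 104120871 counts on genes, and the SD between replicates was 0.0615 for the members' median log2 CPM and 0.062 percentage points for their summed share.

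All 4 groups were fitted in edgeR 4.0.16 (R 4.3.3) with TMM scaling, filterByExpr and the quasi-likelihood test, with Benjamini-Hochberg adjustment over 15220 genes and a threshold of 0.05. Adjusted p-values are from this test. Values after ± are standard errors unless given as SD. Shares were compared with exact permutation tests, whose smallest p is 0.1. The fit was tested on simulated data made from these counts, for etoposide in Null MEFs. All log2 changes of 0.5 and 1 were called in their direction, but those of 0.25, near the members' medians, only in part. Few unchanged genes were called. The simulation changed only a small part of the genes, up or down at random, where the real data had 42.3% called higher and 37.2% lower. It thus does not test calls that depend on scaling. Alternatives were DESeq2 1.42.0, limma-trend (limma 3.58.1, the study's own method), 3 other scalings, 2 other filters, the replicate number as a block, only the libraries of a comparison, each library left out, and members with a replicate SD of at most 0.15 only. Replicates with the same number in different groups were no more alike than others: correlations across genes of their deviations from the group means ran from -0.03 to 0.04 for 18 pairs and from -0.05 to 0.05 for 36 others.

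Members were chosen by symbol, and members and lists were chosen with earlier results of these data known. Genes are named for a fixed role, for the 3 highest or lowest log2 fold changes of a comparison, for the highest or lowest level per length, as ribosomal protein genes outside the rule, or as label checks. Polr1a, Eef1b2, Pabpc1, Myc and Larp1 are examples from the other lists, picked after their values were seen. Rpl12 and the members called in the interaction were picked after their values were seen. Positions, lengths and shared 75-base stretches are from GENCODE M21 (GRCm38), and promoters from RefSeq on GRCm38.p6.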

Additional observations from a re-analysis of the deposited data

Results flagged for a closer look

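The test of the difference between the lines picked out the genes below, whose log2 fold change with etoposide was not the same in DKO as in Null MEFs (edgeR adjusted p under 0.05). Taken with its sign, the log2 fold change was lower in DKO MEFs for Rps27l (-0.65), Rpl5 (-0.47), Rpl22l1 (-0.4), Rpl39 (-0.29), Rpl10a (-0.28), Rpl31 (-0.24), Rpl23 (-0.21) and Rpl36a (-0.2). It was higher in DKO MEFs for Rpl18 (0.23), Rpl7l1 (0.31), Rps12 (0.32), Rps2 (0.35), Rpl34 (0.45), Rpl15 (0.46), Rpl17 (0.5) and Rpl30 (0.71). For Rpl7l1, Rpl17 and Rpl30 it was negative in Null and positive in DKO MEFs, and for Rpl10a the reverse. Rps27l, Rpl22l1, Rpl7l1, Rpl10a, Rpl18, Rps12, Rpl15 and Rpl30 passed the threshold in every alternative.

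The other 8 lost the call when single libraries were left out, and most of them with another tool. In DESeq2 the adjusted p was 0.102 for Rpl17, 0.0546 for Rpl34, 0.0525 for Rpl39, 0.0532 for Rpl5 and 0.155 for Rps2. In limma-trend it was 0.0814 for Rpl17, 0.0613 for Rpl31, 0.156 for Rpl39, 0.1 for Rpl5 and 0.109 for Rps2. With the library size left unscaled the call was lost for Rpl23, Rpl31, Rpl36a, Rpl39 and Rpl5. Of single libraries, Rpl17 lost it without DKO control replicate 1 (0.4, adjusted p = 0.0553). For Rpl34 these were DKO control replicate 3 (0.37, adjusted p = 0.0576), DKO etoposide replicate 3 (0.35, adjusted p = 0.0862) or Null control replicate 3 (0.39, adjusted p = 0.0543). For Rpl23 these were DKO control replicate 3 (-0.2, adjusted p = 0.0508), Null control replicate 1 (-0.15, adjusted p = 0.0624) or Null control replicate 2 (-0.19, adjusted p = 0.0569). Rpl5 lost it without any of 6 libraries (most without Null control replicate 3, adjusted p = 0.0733), Rps2 without any of 5 (DKO control replicate 1, adjusted p = 0.106) and Rpl31 without any of 5 (Null control replicate 3, adjusted p = 0.0935). Rpl36a lost it without any of 6 (Null control replicate 3, adjusted p = 0.0756) and Rpl39 without any of 9 (Null etoposide replicate 2, adjusted p = 0.128).

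Each genotype is 1 line, so the knockout and other differences between the lines cannot be told apart. The labels do not give the origin of the replicates, and the p-values hold for these libraries. Counts are relative, and no measure of RNA per cell or of protein was at hand. Reads were counted only where they aligned uniquely, and most members share sequence with other genes; the effect on their levels was not tested. Etoposide was given at a single dose and time, so that earlier and later changes were not seen.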

How the results depend on the processing

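Of the members' medians, counts and shares, 207 values stayed, 21 moved and 1 reversed over the alternatives. With the library size left unscaled the members' median was 0.44 and 0.5 with etoposide in Null and DKO MEFs, -0.38 in DKO against Null MEFs without etoposide, and 0.09 in the interaction, where the sign reversed. With a mean of at least 1 CPM it was 0.36 with etoposide in Null MEFs and -0.3 in DKO against Null MEFs after etoposide, and in the interaction -0.08 both in DESeq2 and with its size factors. The 14 members called in the interaction became 24 with those size factors, 22 with the mean of at least 1 CPM, and 9 to 21 with 1 library left out (9 without Null control replicate 3, 21 without DKO etoposide replicate 3). The difference in summed share was 0.728, 0.546, -0.437 and -0.619 percentage points over the TMM-scaled library size, in the order Null and DKO MEFs with etoposide, then DKO against Null MEFs without and after it. Without Rn45s, Rmrp and Rpph1 it was 1.37, 1.26, -0.72 and -0.837, and without the most abundant member 1.08 and 1.04 with etoposide in Null and DKO MEFs. Single genes reversed with the library size left unscaled: Rpl36al (0.16 in Null and 0.2 in DKO MEFs with etoposide), Rpl10a (0.23 in DKO MEFs with etoposide) and Rpl18 (-0.02 in DKO against Null MEFs without etoposide). With 1 library left out, Fau ran from -0.28 to 0.16 with etoposide in Null MEFs, and Rpsa from -0.09 to 0.1 in DKO against Null MEFs without it.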
